A study of Mus musculus with 8 samples.

Results

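The Nrf2 antioxidant programme was followed through 10 of its genes in mouse dendritic cells grown from bone marrow and treated with CpG, a DNA ligand of the endosomal receptor TLR9. The members were taken by name, 10 of the 25017 named rows of the deposited table, and each name was found on 1 row. They are Nfe2l2, Hmox1, Nqo1, Gclc, Gclm, Slc7a11, Txnrd1, Srxn1, Prdx1 and Sod2. The study asks how the NF-κB subunit RelB limits inflammatory genes. Cells labelled IFNAR;RelB-DBDB were set against cells labelled RelB-DBDB, and the series description adds that the IFNAR part of the name is a knockout (IFNAR is the type I interferon receptor). Both genotypes carry RelB-DBDB, so their comparison does not set RelB-DBDB against intact RelB. Libraries with intact RelB were not analysed here. The mice were of the C57BL/6 strain, their age is not given, and the culture medium held GM-CSF and IL-4. Per genotype there were 4 libraries: a control labelled 1 h, and cells collected 1, 3 and 8 h into CpG at 0.1 µM. The total is thus 8 libraries, with no repeat of any genotype and condition. No control was labelled 3 or 8 h, so a change at those times includes any effect of longer culture.

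Nrf2, the protein of Nfe2l2, is a transcription factor that Keap1 holds in the cytoplasm and passes to a Cul3 ubiquitin ligase for degradation. Oxidants and electrophiles disable Keap1, and Nrf2 then enters the nucleus, pairs with a small Maf protein and binds antioxidant response elements, from which Bach1 is displaced. Its targets make glutathione, recycle thioredoxin, detoxify quinones and break down haem. In dendritic cells and macrophages the programme is known for limiting the oxidant load that follows activation. Sod2 differs from the others in being best known as an NF-κB target.

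The core of the antioxidant response element, TGACNNNGC on either strand, was searched in the 250 bases before each start in RefSeq's GRCm38.p6 promoter table, which held 10 starts of 8 members (all but Hmox1 and Gclc). It was present before 4 of those 10 starts, in Nfe2l2, Gclm, Prdx1 and Txnrd1, and before 10.2% of all 32851 starts. The 4 stretches below hold these matches in capitals and are written 5′ to 3′ on the gene's strand. They are shown because this element is what the programme's genes are grouped by. Those of Gclm, Prdx1 and Txnrd1 read the core on the opposite strand. They lie at chr2:75704814-75704913 (minus strand), chr3:122245377-122245476, chr4:116685420-116685519 and chr10:82859068-82859167 (plus strand). Those of Prdx1 and Txnrd1 belong to starts inside the annotated gene.
Nfe2l2: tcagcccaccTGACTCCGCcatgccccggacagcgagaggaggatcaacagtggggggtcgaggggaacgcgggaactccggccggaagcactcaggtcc
Gclm: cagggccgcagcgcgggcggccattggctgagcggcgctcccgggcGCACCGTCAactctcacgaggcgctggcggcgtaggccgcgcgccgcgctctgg
Prdx1: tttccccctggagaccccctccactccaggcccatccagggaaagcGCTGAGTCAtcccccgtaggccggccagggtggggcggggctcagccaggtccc
Txnrd1: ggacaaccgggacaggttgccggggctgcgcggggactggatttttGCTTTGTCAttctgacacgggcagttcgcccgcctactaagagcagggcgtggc

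The NF-κB consensus was found before the starts of Sod2 and Prdx1 among these 10 and before 3.9% of all starts. The Sod2 match is shown because this gene changed most under CpG, in capitals within chr17:13007711-13007810 (plus strand). That stretch, too, belongs to a start inside the annotated gene.
Sod2: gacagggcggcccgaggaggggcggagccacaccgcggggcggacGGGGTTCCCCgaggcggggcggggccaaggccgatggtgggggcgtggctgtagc
These matches describe letters in a short window and say nothing of binding, and antioxidant elements farther from the start were not searched.

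Depth was lowest in the 8 h library of IFNAR;RelB-DBDB cells, at 3711818 reads, and highest in the 8 h library of RelB-DBDB cells, at 37221530 reads. The RelB-DBDB 8 h library stood apart, with 6.26% mitochondrial reads against 1.74% to 2.41% in the others. Ifnar1 was read in every library, at 56.1 to 102 CPM in IFNAR;RelB-DBDB cells and 102 to 127 CPM in RelB-DBDB cells. Relb, the gene of RelB, was at 115.5 to 205.9 CPM and 92.5 to 197.4 CPM in the same order. At 8 h Relb stood at 197 CPM in IFNAR;RelB-DBDB cells and 92.5 CPM in RelB-DBDB cells. Values are CPM, each read count scaled to the library's total. Dendritic cell markers summed to 11150 to 12660 CPM in IFNAR;RelB-DBDB libraries and 7257 to 11540 CPM in RelB-DBDB libraries, with 7 or 8 of the 8 markers read in each library and Cd209a at 0 reads in 3 libraries. Every member had at least 71 reads in every library, and the widest 95% interval, that of Nqo1, reached 24.0% of its value to either side. Intervals cover counting error only.

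Over control, 7 members rose at 3 h of CpG and 5 at 8 h, and 0 of 10 were called at 1 h. Sod2, Prdx1, Slc7a11 and Txnrd1 rose at both times. Hmox1, Srxn1 and Nfe2l2 rose at 3 h, and Nqo1 rose at 8 h. The tests are limma's on log2(CPM + 1) with Benjamini-Hochberg adjustment over all 12297 tested genes and a threshold of 0.05, from a model of condition and genotype on all 8 libraries. The 7 of 10 members called higher at 3 h compare with 3.64% of all tested genes (7.51% in either direction), and the 5 of 10 at 8 h with 6.51%. At 8 h 15.1% of all tested genes were called lower, 21.6% in either direction, and no member was lower. That split depends on scaling: 9.16% were higher and 9.73% lower at 8 h with TMM factors, and 9.97% and 9.02% with median-ratio factors. In CPM, 9 of 10 members (not Gclc) were above control at 3 h in both genotypes, beside 23.3% of tested genes, and 8 (not Hmox1 or Gclc) at 8 h, beside 21.3%. With TMM factors, a scaling of these level counts added after seeing the data, they were 10 beside 32.1% at 3 h and 9 beside 33.2% at 8 h. At 1 h 5 members (Gclm, Prdx1, Hmox1, Srxn1 and Gclc) were below control in both genotypes, beside 31.1%. At 1 h, 0 of 10 members were called by limma and 0 by limma-voom, with 1 at an unadjusted p under 0.05 (Gclm), against 0.0651% of all genes called. The median log2 change of the 10 members was -0.16 at 1 h, 1.23 at 3 h and 0.64 at 8 h, beside -0.01, -0.16 and -0.23 for all tested genes. Since the spread of this model comes from disagreement between the genotypes, no p-value here measures the spread between repeated cultures.

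**Figure D1:**
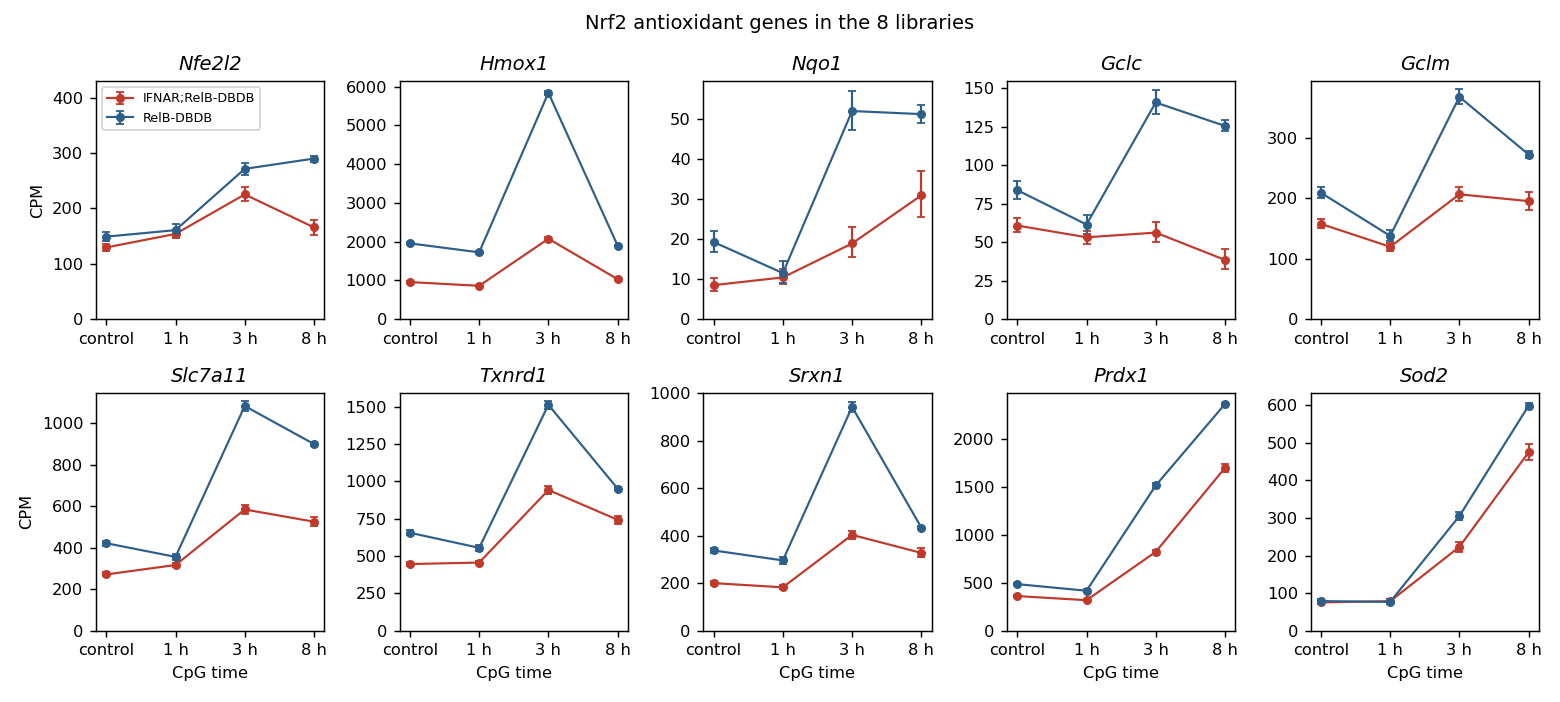
CPM of the 10 genes (vertical axes, from 0) in control cells and after 1, 3 and 8 h of CpG (horizontal axes), in IFNAR;RelB-DBDB cells (red) and RelB-DBDB cells (blue). Each point is 1 library and bars are 95% counting intervals; Hmox1 and Srxn1 peak at 3 h, Prdx1 and Sod2 are highest at 8 h, and red lies below blue at all points except Sod2 at 1 h.

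Nfe2l2, the gene of Nrf2 itself (chromosome 2, 75675513 to 75704641 of mm10, minus strand), stood at 129, 154, 225 and 166 CPM in IFNAR;RelB-DBDB cells (control, 1, 3 and 8 h) and at 149, 161, 271 and 290.0 CPM in RelB-DBDB cells. Both genotypes were above their control at 3 and 8 h, and the 8 h level was 0.736 of the 3 h level in IFNAR;RelB-DBDB cells (95% interval 0.667 to 0.811) and 1.07 times it in RelB-DBDB cells (1.33 times with TMM factors). The log2 change was 0.83 ± 0.19 (SE) at 3 h (adjusted p = 0.0461) and 0.65 ± 0.19 at 8 h (adjusted p = 0.0502). The 3 h call ended in 6 of 8 fits with 1 library left out, all but those without an 8 h library (adjusted p up to 0.398), and with TMM factors (0.0777), median-ratio factors (0.0608) and no filter (0.0941). With a pseudocount of 5 (adjusted p = 0.0498), median-ratio factors (0.0441) or limma-voom (0.0292) Nfe2l2 passed at 8 h.

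Hmox1, which encodes the inducible haem oxygenase that breaks haem into biliverdin, iron and carbon monoxide (chromosome 8, 75093621 to 75100589), had the highest control level of the 10 per exon length, at 546 CPM per kb in IFNAR;RelB-DBDB control cells and 1120.0 CPM per kb in RelB-DBDB control cells. Its level was 956, 860.0, 2075 and 1031 CPM in IFNAR;RelB-DBDB cells (control, 1, 3 and 8 h), and 1955, 1724, 5841 and 1897 CPM in RelB-DBDB cells. Each genotype had a single high library, that of 3 h, and the 8 h library lay close to control, at 1.08 times its level in IFNAR;RelB-DBDB cells and 0.970 of it in RelB-DBDB cells. With TMM factors these were 1.14 and 1.29 times control, both above it. Set against control, 3 h was 2.17-fold in IFNAR;RelB-DBDB cells (95% interval 2.11 to 2.23) and 2.99-fold in RelB-DBDB cells (2.94 to 3.04). The log2 change was 1.35 ± 0.18 at 3 h (adjusted p = 0.00753) and 0.03 ± 0.18 at 8 h (adjusted p = 0.903). The 3 h call ended without either control or either 3 h library (adjusted p up to 0.127). From 3 to 8 h it fell by 1.31 on the log2 scale (adjusted p = 0.0232), in a comparison added after these values were seen. That call rested on every library other than those of 8 h, with adjusted p up to 0.319 when 1 of the other 6 was left out.

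Nqo1, a quinone reductase and textbook Nrf2 target (chromosome 8, 107388225 to 107403206, minus strand), was the lowest member, at 8.52, 10.4, 18.9 and 31.0 CPM in IFNAR;RelB-DBDB cells and 19.3, 11.5, 52.1 and 51.3 CPM in RelB-DBDB cells. It was above control at 3 and 8 h in both genotypes, and 8 h was 1.64 times 3 h in IFNAR;RelB-DBDB cells and 0.985 of it in RelB-DBDB cells. With TMM factors these were 1.58 and 1.23 times, above 3 h in both genotypes. The log2 change was 1.23 ± 0.30 at 3 h (adjusted p = 0.0566) and 1.56 ± 0.30 at 8 h (adjusted p = 0.0148). At 3 h it passed with TMM factors (0.0406), median-ratio factors (0.0356) and limma-voom (0.039), and at 8 h it did not without either control library (up to 0.103).

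Slc7a11 brings cystine into the cell as the transporter chain of system xc- and so feeds glutathione synthesis (chromosome 3, 49892526 to 50443614, minus strand). It stood at 271, 317, 584 and 525 CPM in IFNAR;RelB-DBDB cells and at 422, 356, 1082 and 899 CPM in RelB-DBDB cells. Both 3 h and both 8 h libraries were above their own control and 1 h libraries. The log2 change was 1.23 ± 0.19 at 3 h (adjusted p = 0.0121) and 1.02 ± 0.19 at 8 h (adjusted p = 0.0122). Its call ended without either control library at both times and without either 3 h library at 3 h, with adjusted p up to 0.199.

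Gclc and Gclm, the catalytic and modifier subunits of the enzyme that starts glutathione synthesis, did not pass at any time in the main fit. With median-ratio factors Gclm passed at 3 h (adjusted p = 0.0485). Gclm (chromosome 3, 122245557 to 122270732) stood at 158, 119.9, 207 and 196 CPM in IFNAR;RelB-DBDB cells and at 209, 138, 368 and 273 CPM in RelB-DBDB cells. Its lowest library was that of 1 h in each genotype, at 0.759 of control in IFNAR;RelB-DBDB cells (95% interval 0.708 to 0.814) and 0.659 of control in RelB-DBDB cells (0.608 to 0.714). The log2 change of Gclm was -0.50 ± 0.17 at 1 h (unadjusted p = 0.0216, adjusted p = 1), 0.60 ± 0.17 at 3 h (adjusted p = 0.0819) and 0.34 ± 0.17 at 8 h (adjusted p = 0.171). Gclc (chromosome 9, 77754535 to 77794485) parted by genotype, with 60.9, 53.2, 56.3 and 38.5 CPM in IFNAR;RelB-DBDB cells and 83.9, 61.5, 140.9 and 126 CPM in RelB-DBDB cells. Its 8 h level was 0.633 of control in IFNAR;RelB-DBDB cells (95% interval 0.525 to 0.758) and 1.498 times control in RelB-DBDB cells (1.39 to 1.61). Over both genotypes its log2 change was 0.31 ± 0.35 at 3 h and -0.03 ± 0.35 at 8 h (adjusted p = 0.62 and 0.949).

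In the thioredoxin branch, both Txnrd1 and Srxn1 rose at 3 h. Txnrd1, the cytosolic thioredoxin reductase (chromosome 10, 82833951 to 82897712), stood at 447, 457, 943 and 743 CPM in IFNAR;RelB-DBDB cells and at 656, 555, 1513 and 952 CPM in RelB-DBDB cells. Srxn1, sulfiredoxin, which restores overoxidised peroxiredoxins (chromosome 2, 152105516 to 152111376), stood at 201, 183, 403 and 328 CPM in IFNAR;RelB-DBDB cells and at 338, 296, 942 and 434 CPM in RelB-DBDB cells. Both genes were highest at 3 h in both genotypes and above control at 8 h. That 3 h maximum in both genotypes was shared by 5 of 10 members (Gclm, Txnrd1, Hmox1, Srxn1 and Slc7a11), beside 7.03% of tested genes. Together with Gclc they make the 6 members that were lower at 8 h than at 3 h in both genotypes, beside 34.1%. With TMM or median-ratio factors Slc7a11 left the first set and Slc7a11 and Gclc the second, which leaves Gclm, Txnrd1, Hmox1 and Srxn1 in both (4 beside 7.6% and 4 beside 28.3% with TMM factors). The log2 change of Txnrd1 was 1.14 ± 0.15 at 3 h (adjusted p = 0.00689) and 0.63 ± 0.15 at 8 h (adjusted p = 0.0249). For Srxn1 it was 1.24 ± 0.19 at 3 h (adjusted p = 0.0138) and 0.53 ± 0.19 at 8 h (adjusted p = 0.088). At 8 h Srxn1 passed with TMM (0.0192) and median-ratio factors (0.0179). The Txnrd1 call at 8 h ended in 6 of 8 fits with 1 library left out (adjusted p up to 0.187) and with no filter (0.0638), and the 3 h calls of both ended without either control or either 3 h library (up to 0.166).

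Prdx1, a cytosolic peroxiredoxin that reduces hydrogen peroxide (chromosome 4, 116685544 to 116700822), stood at 361, 318, 822 and 1696 CPM in IFNAR;RelB-DBDB cells and at 485, 417, 1513 and 2359.6 CPM in RelB-DBDB cells. Its level grew at each step after 1 h in both genotypes, and the 8 h libraries were 4.69 times control (95% interval 4.51 to 4.88) in IFNAR;RelB-DBDB cells and 4.86 times control (4.73 to 5.001) in RelB-DBDB cells. The log2 change was 1.41 ± 0.16 at 3 h (adjusted p = 0.00458) and 2.25 ± 0.16 at 8 h (adjusted p = 0.00036). The 8 h call held in 8 of 8 fits with 1 library left out, with adjusted p up to 0.00912. At 3 h it ended without either control or the RelB-DBDB 3 h library (up to 0.0939).

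Sod2, the mitochondrial superoxide dismutase (chromosome 17, 13006846 to 13040063), changed most of the 10. It stood at 75.5, 78.6, 223 and 474 CPM in IFNAR;RelB-DBDB cells and at 78.8, 76.8, 305 and 598 CPM in RelB-DBDB cells. Control and 1 h libraries were alike in both genotypes, and every 3 h and 8 h library lay above all 4 of them. The log2 change was 1.74 ± 0.16 at 3 h (adjusted p = 0.00233) and 2.77 ± 0.16 at 8 h (6.83-fold on the CPM + 1 scale, adjusted p = 0.000228). The 8 h call held without any 1 of the 8 libraries (adjusted p up to 0.00541), and that at 3 h was lost without the RelB-DBDB 3 h library (0.0833). From 3 to 8 h Sod2 rose by 1.03 ± 0.16 (adjusted p = 0.0321, up to 0.343 with a library left out), and Prdx1 stood at 0.84 ± 0.16 (adjusted p = 0.0551). In this comparison Prdx1 passed with TMM factors (0.0449), median-ratio factors (0.0426) and limma-voom (0.0383). Between 8 and 3 h the main fit called 1 member higher (Sod2) and 1 lower (Hmox1). Of all tested genes 0.634% were called higher and 1.07% lower, 1.71% in all.

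**Figure D2:**
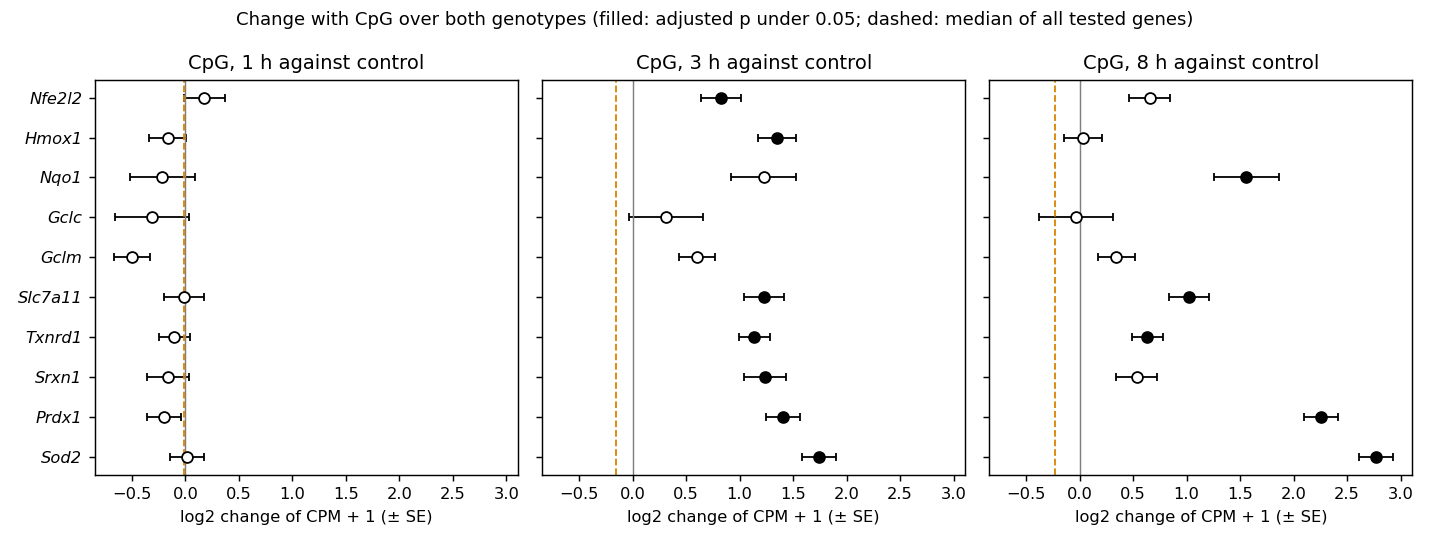
Log2 change of CPM + 1 against control (horizontal axis) at 1, 3 and 8 h of CpG for each gene, fitted over both genotypes, with SE bars; filled points have an adjusted p under 0.05 and the dashed line is the median of all 12297 tested genes. No point is filled at 1 h, 7 are at 3 h and 5 at 8 h, with Prdx1 (2.25) and Sod2 (2.77) farthest right at 8 h.

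When the RelB-DBDB 8 h library, which stood apart, was left out, more members and more of all tested genes were called at 3 h and 8 h. The same held when the IFNAR;RelB-DBDB 8 h library was left out instead. Either fit leaves a lone 8 h library, so the gain does not point to the library that stood apart. At 3 h, 2 of 10 were called without the 3 h library of IFNAR;RelB-DBDB cells (0.401% of all genes), 0 of 10 without that of RelB-DBDB cells (0.0981%) and 1 without the control of IFNAR;RelB-DBDB cells (1.03%) or of RelB-DBDB cells (0.736%). At 8 h, 2 were called without either control, beside 5.09% and 2.72% of all genes in the same order. Without a genotype term in the model, Sod2 alone was called at 3 h, beside 2.72% of all genes, and the 3 h calls of Nfe2l2, Hmox1, Slc7a11, Txnrd1, Srxn1 and Prdx1 ended (adjusted p 0.0747 to 0.307). At 8 h that model called Prdx1 and Sod2, beside 9.99% of all genes, and the calls of Nqo1, Slc7a11 and Txnrd1 ended (adjusted p 0.103 to 0.185). Part of a short read can be shared between genes. Of the 50-base words in annotated transcripts, 21.0% of those of Sod2, 8.29% of Prdx1, 3.92% of Gclm and 0.618% of Slc7a11 also occur in another gene's transcripts, so the levels of these 4 carry that uncertainty. Whether counting used strand is not stated, and reads of genes on the other strand within Gclm, Slc7a11 and Txnrd1 could not be told apart. Genes on the same strand overlap Nfe2l2, Gclm, Slc7a11 and Txnrd1 (for Txnrd1 the protein-coding Eid3), and there strand does not separate reads.

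Across genotypes, the antioxidant genes were lower in IFNAR;RelB-DBDB cells. With 1 library per genotype and condition, a difference of genotype and one between cultures or mice cannot be told apart. In CPM, 9 of the 10 members (all but Sod2) were lower in 4 of 4 conditions, control included, beside 9.49% of tested genes, and with TMM factors 10 were, beside 19.2%. Hmox1, Srxn1, Slc7a11, Prdx1 and Txnrd1 passed the test of genotype, all lower, so 5 of 10 members were called lower, beside 1.66% of all tested genes. Of all tested genes 4.59% were called higher, 6.25% in either direction, and no member was higher. With TMM factors 2.71% were lower and 3.58% higher. The median log2 difference (IFNAR;RelB-DBDB minus RelB-DBDB) was -0.58 for the 10 members and 0.11 for all tested genes. By condition, 10, 9, 10 and 10 of the 10 members were lower in control cells and at 1, 3 and 8 h, beside 42.1%, 40.2%, 46.5% and 31.4% of tested genes. The members' median ratio was 0.703 in control, 0.867 at 1 h, 0.541 at 3 h and 0.66 at 8 h, on CPM. With TMM factors it was 0.666, 0.82, 0.527 and 0.498 in the same order, so the genotypes were closest at 1 h under both scalings and the widest gap was at 3 h on CPM and at 8 h with TMM factors.

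Hmox1 differed most, with a log2 difference of -1.10 ± 0.12 (SE, adjusted p = 0.00437). Its ratio was 0.489 in control (95% interval 0.478 to 0.5004), 0.499 at 1 h (0.486 to 0.513), 0.355 at 3 h (0.348 to 0.363) and 0.544 at 8 h (0.526 to 0.562). All 4 intervals lay far below 1, and the call held in 8 of 8 fits with 1 library left out (adjusted p up to 0.0435). Srxn1 differed by -0.77 ± 0.14 (adjusted p = 0.0223), with ratios of 0.593, 0.618, 0.428 and 0.754 in the same order. Slc7a11 differed by -0.62 ± 0.13 (adjusted p = 0.0411), Prdx1 by -0.54 ± 0.11 (adjusted p = 0.0362) and Txnrd1 by -0.47 ± 0.10 (adjusted p = 0.0439). These 4 calls were less firm. Those of Srxn1, Prdx1 and Txnrd1 ended in 6 of 8 fits with 1 library left out, all but those without an 8 h library, and that of Slc7a11 ended without either control or either 3 h library (adjusted p up to 0.228 among the 4 genes). All 4 missed the threshold with no filter (0.0604 to 0.111). Leaving out either library of a condition gives the same fitted genotype difference, so the 8 fits come in matching pairs and are not 8 separate checks.

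Gclc (-0.91 ± 0.24, adjusted p = 0.0789), Nqo1 (-0.84 ± 0.21, adjusted p = 0.0699) and Gclm (-0.48 ± 0.12, adjusted p = 0.0661) lay below 0 and did not pass. With TMM factors Nqo1 (0.0406) and Gclm (0.0369) did. Nfe2l2 stood at -0.33 ± 0.14 (adjusted p = 0.204) and Sod2 at -0.20 ± 0.11 (adjusted p = 0.33, 95% interval -0.47 to 0.06). The gene of the transcription factor itself thus had a smaller fitted difference than its 8 non-Sod2 targets. Its ratios were 0.869, 0.958, 0.830 and 0.571 in control and at 1, 3 and 8 h. At 8 h only Hmox1 (0.544) and Gclc (0.307) among these targets had a lower ratio, so the order did not hold there. That order of sizes was not tested.

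**Figure D3:**
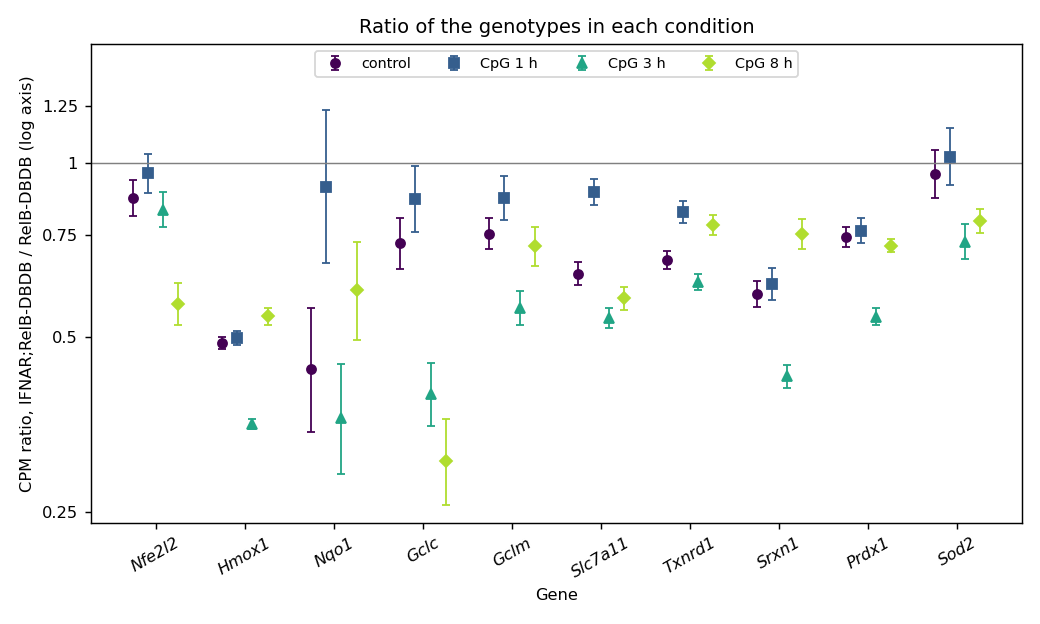
Ratio of CPM in IFNAR;RelB-DBDB cells to CPM in RelB-DBDB cells (vertical log axis) for each gene in control cells and at 1, 3 and 8 h of CpG, with 95% counting intervals. Of 40 ratios 39 lie below 1, the exception being Sod2 at 1 h (1.02), and Gclc at 8 h is lowest (0.307).

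Whether the genotypes responded to CpG differently was tested as the genotype difference at 3 and 8 h minus that in control and at 1 h. None of the 10 members passed, with 0 by limma and 0 by limma-voom, 1 (Gclc) at an unadjusted p under 0.05, and 0% of all tested genes called. Gclc stood at -1.16 ± 0.23 (unadjusted p = 0.0017, adjusted p = 0.505), and the members' median was -0.36 beside 0.09 for all tested genes. This fit has 2 residual degrees of freedom. More members and more of all tested genes passed when a 3 h or an 8 h library of either genotype was left out. Those fits have 1 residual degree of freedom. The share of members was near that of all genes without a 3 h library and above it without an 8 h library. Srxn1 stood at 0.315 without a 3 h library, opposite in sign to the full fit, and at -0.4996 without an 8 h library.

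Marker genes of other cells also differed by genotype. T and NK cell markers (5 of 5 read in every library) summed to 54.1 to 76.8 CPM in IFNAR;RelB-DBDB libraries and 9.38 to 12.6 CPM in RelB-DBDB libraries. Mast cell and basophil markers (6 of 6) summed to 23.1 to 33.7 CPM in IFNAR;RelB-DBDB libraries and 5.13 to 10.2 CPM in RelB-DBDB libraries, and eosinophil markers (5, with Il5ra at 0 reads in 1 library) to 17.2 to 25.2 CPM and 2.71 to 8.93 CPM in the same order. Macrophage and monocyte markers (8, with Cd163 at 0 reads in 4 libraries) overlapped, at 499 to 883 CPM in IFNAR;RelB-DBDB libraries and 636 to 688 CPM in RelB-DBDB libraries. Erythroid markers summed to 3.48 to 4.84 CPM in IFNAR;RelB-DBDB libraries and 0.403 to 2.66 CPM in RelB-DBDB libraries, with Hba-a1 at 0 reads in all 8, and stromal markers to 5.34 to 6.37 CPM and 1.33 to 1.46 CPM in the same order. Neutrophil and B cell markers overlapped, at 175 to 230.1 CPM and 5.83 to 8.89 CPM in IFNAR;RelB-DBDB libraries and 121 to 217 CPM and 4.38 to 6.84 CPM in RelB-DBDB libraries. The part of these cells in the genotype difference was not tested. In bulk RNA, fewer cells of a type and less RNA per cell cannot be told apart.

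The counts for the lists below stand beside 3.64% of all tested genes called higher and 3.87% lower at 3 h, and 6.51% higher and 15.1% lower at 8 h. Of 13 listed regulators and partners of Nrf2, 1 rose at 3 h and 2 fell at 8 h, shares near those of all genes, and the list's median log2 change was -0.09 at 3 h and -0.20 at 8 h. Sqstm1, the autophagy receptor p62 that draws Keap1 away and is itself an Nrf2 target, rose by 1.10 at 3 h (adjusted p = 0.00872), with 1879 CPM at 3 h and 982 CPM in control in IFNAR;RelB-DBDB cells, and 3183 and 1326 CPM in RelB-DBDB cells. It was also lower in IFNAR;RelB-DBDB cells (-0.50, adjusted p = 0.0422), as was the small Maf gene Mafk (-0.48, adjusted p = 0.0402). Bach1, the repressor that competes with Nrf2, fell by 1.22 on the log2 scale at 8 h (adjusted p = 0.0094), and Mafk fell by 0.51 (adjusted p = 0.0466). Bach1 stood at 64.9 CPM at 8 h and 114 CPM in control in IFNAR;RelB-DBDB cells, and at 45.3 and 143 CPM in RelB-DBDB cells. Keap1 stood at -0.02 at 3 h and 0.41 at 8 h (adjusted p = 0.969 and 0.319), and Mafg at 0.65 and -0.39 (adjusted p = 0.181 and 0.296).

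Of 20 tested glutathione genes, 4 rose at 3 h, and 6 rose and 5 fell at 8 h, beside 3.64%, 6.51% and 15.1% of all genes. Those that rose at 3 h were led by Abcc1, an exporter of glutathione conjugates (1.33, adjusted p = 0.0094), and Chac2 (0.98, adjusted p = 0.0408), with the synthetase Gss (0.97) and the reductase Gsr (0.80). At 8 h the glutathione transferase Gstm1 (2.09, adjusted p = 0.00107) and Chac2 (1.31) led, while Mgst3 (-1.34, adjusted p = 0.00638) and Gstt2 (-1.10, adjusted p = 0.0223), 2 other transferases, fell. Between genotypes Gstm1 (-1.29, adjusted p = 0.00366) and Gss (-0.73, adjusted p = 0.0364) were lower in IFNAR;RelB-DBDB cells, and Glrx, a glutaredoxin, was higher (0.73, adjusted p = 0.00626). Reads of Gstm1 can be shared with its close relatives.

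Of 14 other thioredoxin, peroxiredoxin and sestrin genes, 1 fell at 3 h, and 1 rose and 2 fell at 8 h, with a list median of -0.58 at 8 h. Txnip, which binds and inhibits thioredoxin, fell at 3 h (by 0.86, adjusted p = 0.0345) and at 8 h (by 1.19, adjusted p = 0.00626), to 426 CPM at 8 h against 784 CPM in control in IFNAR;RelB-DBDB cells, and 336 against 949 CPM in RelB-DBDB cells. Txnrd3 fell by 1.24 at 8 h (adjusted p = 0.0195), and Prdx5 rose by 0.84 (adjusted p = 0.0186). Of the 6 enzymes that make NADPH, 0 passed at 3 h, and 3 rose and 1 fell at 8 h. Me1 (1.39, adjusted p = 0.0469) and the pentose phosphate enzymes Pgd (0.75, adjusted p = 0.0207) and G6pdx (0.49, adjusted p = 0.043) rose, and Idh1 fell by 0.72 (adjusted p = 0.0139).

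The haem and ferritin list had 2 of 7 higher at 3 h, and 2 higher and 1 lower at 8 h. Slc40a1, the iron exporter ferroportin, rose by 1.08 at 3 h (adjusted p = 0.0149) and fell by 0.61 at 8 h (adjusted p = 0.0465), with 29.9, 25.6, 60.3 and 18.3 CPM in IFNAR;RelB-DBDB cells and 40.7, 28.9, 93.4 and 27.4 CPM in RelB-DBDB cells (control, 1, 3 and 8 h). Fth1, ferritin heavy chain, rose at 3 h (0.68, adjusted p = 0.0323) and 8 h (1.79, adjusted p = 0.000555), and Blvrb, biliverdin reductase B, at 8 h (1.47, adjusted p = 0.000926). Fth1 (-0.49, adjusted p = 0.0332) and Blvrb (-0.44, adjusted p = 0.0387) were lower in IFNAR;RelB-DBDB cells. Of the 3 tested genes among the other superoxide dismutases and catalase, only Cat passed, higher at 8 h (1.27, adjusted p = 0.00151) and, unlike the members, higher in IFNAR;RelB-DBDB cells (0.46, adjusted p = 0.0336).

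Detoxification enzymes had 1 of 11 lower at 3 h, and 3 higher and 2 lower at 8 h, the lower share at 8 h being near the 15.1% of all genes. Akr1b8 (1.34, adjusted p = 0.0176) and Ptgr1 (1.195, adjusted p = 0.0143), which reduce reactive carbonyls and prostaglandins, rose at 8 h. Osgin1 (by 1.31, adjusted p = 0.0176) and the epoxide hydrolase Ephx1 (by 0.97, adjusted p = 0.011) fell at 8 h, and Ephx1 fell at 3 h (by 0.80, adjusted p = 0.0379). Ptgr1 differed by -1.55 (adjusted p = 0.00361) and Akr1b8 by -1.07 (adjusted p = 0.023) between genotypes, both lower in IFNAR;RelB-DBDB cells, where 3 of 11 were lower (with Esd) and 1 was higher (Nqo2). Akr1b8 was read at 0.364 to 2.42 CPM in IFNAR;RelB-DBDB cells and 1.46 to 6.61 CPM in RelB-DBDB cells, where the log2(CPM + 1) scale understates changes.

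Sources of oxidants and electrophiles rose in part. Of 8 genes, Irg1, Cybb, Nos2 and Ncf1 rose at both 3 h and 8 h, 4 in all. Irg1 (Acod1), which makes the Keap1-modifying metabolite itaconate, rose by 3.998 at 3 h (adjusted p = 0.00265) and 4.31 at 8 h (adjusted p = 0.000905). Cybb, the catalytic chain of the phagocyte NADPH oxidase, rose by 1.70 (adjusted p = 0.00137) and 2.84 (adjusted p = 0.00011), and Nos2, inducible nitric oxide synthase, by 1.53 (adjusted p = 0.0121) and 2.02 (adjusted p = 0.00237). Nos2 was lower in IFNAR;RelB-DBDB cells (-0.92, adjusted p = 0.0218), Irg1 stood at -0.42 (adjusted p = 0.389) and Cybb at -0.09 (adjusted p = 0.576). None of the 3 passed at 1 h.

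Slc7a11 is also a target of the stress factor Atf4, and Atf4 itself with other genes of its programme was taken as a list. Of its 10 genes, 1 rose at 3 h and 5 fell at 8 h, with a list median of -0.51 at 3 h and -0.82 at 8 h. Atf3 rose at 3 h (0.67, adjusted p = 0.0257). Phgdh (by 1.97, adjusted p = 0.00263) and Asns (by 1.53, adjusted p = 0.00178), enzymes of serine and asparagine synthesis, fell most at 8 h. Of the 6 NF-κB feedback genes, 3 were called higher at 1 h, beside 0.0651% of all tested genes, and 5 at 3 h and at 8 h. Birc3 (0.23), Nfkb2 (0.09) and Relb (-0.12) were not called at 1 h. Relb did not pass at 3 h or 8 h either (adjusted p = 0.123 and 0.59). Nfkbiz (4.36), Tnfaip3 (1.88) and Nfkbia (1.43) had risen at 1 h (adjusted p = 0.00211, 0.0328 and 0.0328), when Sod2 stood at 0.01 (95% interval -0.36 to 0.38).

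**Figure D4:**
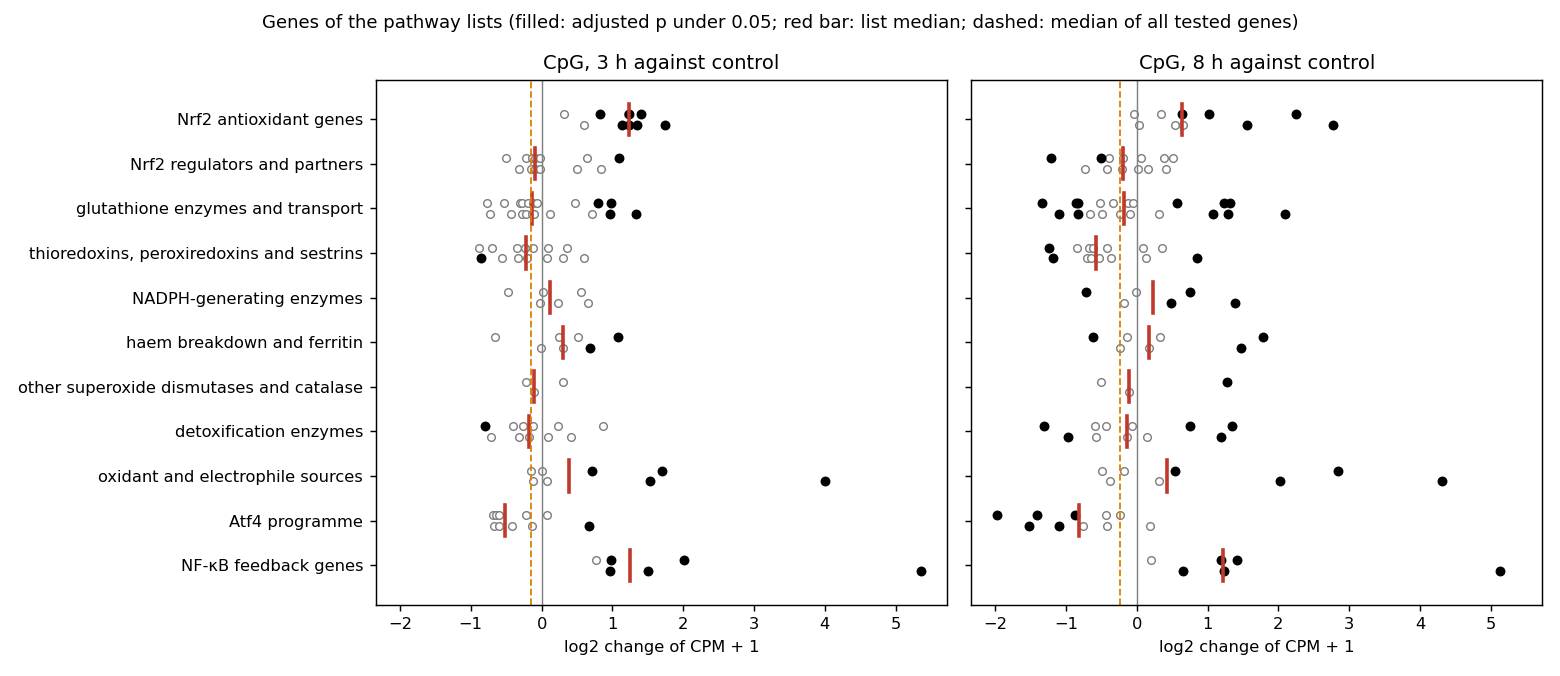
Log2 change of CPM + 1 against control (horizontal axis) at 3 and 8 h of CpG for the genes of each list (rows), fitted over both genotypes. Filled points have an adjusted p under 0.05, red bars are list medians and the dashed line is the median of all tested genes; the bar of the 10 antioxidant genes lies at 1.23 and 0.64, that of the Atf4 list at -0.51 and -0.82.

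Over the 8 libraries the members did not follow a single pattern. Pearson's r of log2(CPM + 1) between members ran from 0.278 (Gclc with Sod2) to 0.981 (Prdx1 with Sod2), and Txnrd1 with Srxn1 reached 0.972. Among 8493 tested genes with a mean of at least 10 CPM, the 3 most like Hmox1 in this measure were Cd5l (0.9495), Srxn1 (0.943) and Csf1 (0.942). Those most like Slc7a11 were Jag1 (0.985), Kpna4 (0.983) and Dcun1d3 (0.982), those most like Sod2 were Actn1 (0.995), Alcam (0.993) and Dstn (0.993), and those most like Nfe2l2 were Sbds, Pcgf3 and Usp12 (0.979 to 0.981). The 8 points share libraries and time points, so these are descriptions.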

How the data were processed

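Each deposited signal value is a CPM to which the authors added 1: by test of the 8 columns, the minimum is 1, and subtracting 1 leaves CPM that are whole multiples of 1 read (tolerance 0.01 read). The submitters' processing notes name cutadapt, edgeR and mm10; the aligner, the counter and the annotation were not stated there. Per the labels' protocols the libraries were stranded mRNA libraries with 50 bp single-end reads. Of 27178 rows, 2161 had no name and counted toward totals only (0.0737% to 0.131% of reads), and 16 columns of other samples were left aside. The design allowed for counts or normalized values, and the limma test given for the second kind was used.

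A gene was tested if 2 of the 8 libraries reached 1 CPM (12297 genes, the 10 members among them). limma 3.58.1 in R 4.3.3, with a mean trend in its variance prior, modelled log2(CPM + 1) by condition and genotype, with 3 residual degrees of freedom. Ratios of 2 libraries carry exact 95% intervals for a pair of Poisson counts. The fit was tested on simulated data. Alternatives were other pseudocounts, filters and scalings, no genotype term, each library left out and limma-voom on the reads, which was added after seeing the data, as were the comparison of 8 h with 3 h and the scaled ratios of single libraries. The members and lists were chosen with earlier results of these data known. Named were the members, Keap1, Bach1, Mafg, Nfkbia, Tnfaip3, Nos2, Irg1 and Cybb, and, from each list at each CpG time, the 2 largest called increases and decreases. The genotype values of list genes and the values of Gss, Gsr, G6pdx, Glrx, Ncf1, Birc3, Nfkb2 and Relb beyond that rule were chosen after they were seen. Acod1 and Adgre1 were matched by the older symbols Irg1 and Emr1. Gene positions and exon lengths are GENCODE's on mm10, and promoters are RefSeq's on GRCm38.p6. Plots were made in matplotlib 3.10.9 under Python 3.11.15.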

Additional observations from a re-analysis of the deposited data

Results flagged for a closer look

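Results for 3 genes were singled out because the genotypes moved in opposite directions against their own control, each beyond counting error. Gclc at 8 h stood at 0.633 of control in IFNAR;RelB-DBDB cells and at 1.498 times control in RelB-DBDB cells, so that the change in IFNAR;RelB-DBDB cells was 0.423 of that in RelB-DBDB cells. Slc7a11 at 1 h stood at 1.17 times control in IFNAR;RelB-DBDB cells and 0.844 of control in RelB-DBDB cells (a ratio of changes of 1.38). Hmox1 at 8 h stood at 1.08 times control in IFNAR;RelB-DBDB cells and 0.97 of control in RelB-DBDB cells (a ratio of changes of 1.11). The opposite directions of Hmox1 exist on CPM only: with TMM factors 8 h stood at 1.14 times control in IFNAR;RelB-DBDB cells and 1.29 times control in RelB-DBDB cells. Those of the other 2 genes kept their directions with TMM factors, at 0.671 and 1.99 for Gclc and 1.17 and 0.85 for Slc7a11. With 1 library for each genotype and time these differences at a single time were not tested against the spread between cultures, and counting intervals do not cover that spread. In the joint test of 3 and 8 h the late difference of Gclc had an adjusted p of 0.505 and that of Hmox1 0.821.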

How the results depend on the processing

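Members called, with 1 library left out at a time, ranged from 0 to 0 at 1 h (0.0409% to 0.286% of all genes called in the same fits), from 0 to 9 at 3 h (0.0981% to 35.2%), from 2 to 7 at 8 h (2.72% to 57.7%), from 1 to 8 between genotypes (1.05% to 16.7%), from 0 to 7 for the late genotype difference (0.566% to 46.2%) and from 0 to 5 at 8 h against 3 h (0% to 41.0%). At 8 h and for the late difference, the highest count of members and the highest share of all genes came from different fits. Each such fit leaves 1 condition with a lone library, which is assumed to vary like the others. Between genotypes and for the late difference, leaving out either library of a condition gives the same fitted difference. Without a genotype term 1 was called at 3 h (2.72% of all genes), 2 at 8 h (9.99%) and 0 at 8 h against 3 h (0.114%); with no filter 1 was called between genotypes (2.0%) and 0 at 8 h against 3 h (0.189%). With no filter 20687 genes were tested. The cause of these changes was not tested for any setting. limma-voom called 0, 8, 6, 5, 0 and 3 members in the same order as the ranges, beside 0.0895%, 7.64%, 35.1%, 6.22%, 0% and 2.73% of all genes. The planned edgeR and DESeq2 fits on reads worked back from the table were not run, and limma-voom on the same reads was run in their place. Libraries could not be paired by mouse or culture, because the labels give no shared replicate numbers and each genotype and condition has 1 library. The main model did set the genotypes against each other within each condition. The members with the lowest depth, Nqo1 and Gclc, limit what a single library shows.

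Fitted log2 values that changed sign had adjusted p above the threshold except for Srxn1 in the late difference. At 1 h, with a library left out, they spanned -0.0033 to 0.359 for Nfe2l2, -0.69 to 0.255 for Nqo1, -0.787 to 0.156 for Gclc, -0.31 to 0.288 for Slc7a11, -0.23 to 0.0199 for Txnrd1 and -0.148 to 0.168 for Sod2, and Slc7a11 was at 0.0113 with median-ratio factors. At 8 h they spanned -0.116 to 0.181 for Hmox1 and -0.546 to 0.477 for Gclc, and Gclc was at 0.211 with TMM factors, 0.231 with median-ratio factors and 0.129 with limma-voom. For the late difference they spanned -0.476 to 0.138 for Hmox1, -0.931 to 0.0321 for Nqo1, -0.264 to 0.0608 for Txnrd1 and -0.4996 to 0.315 for Srxn1. The lower end for Srxn1 came without an 8 h library and the upper end without a 3 h library. For 8 h against 3 h they spanned -0.486 to 0.141 for Nfe2l2, -0.0539 to 0.715 for Nqo1 and -0.861 to 0.162 for Gclc.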
